A study of Mus musculus with 8 samples.

Results

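Gene expression was compared between JQ1 given alone and its vehicle control, each in 2 RNA-seq libraries made from lung tumour nodules of mice. These 4 libraries were taken from 8 by their treatment label, and the genes described are the 14085 of 52459 listed symbols that passed a filter on low counts. All 8 libraries come from a genetically engineered mouse model of lung cancer on a mixed strain background, and the other 4 received the checkpoint antibody anti-PD-1 alone or together with JQ1. The labels give no allele, dose, length of treatment or age, and they do not say whether the libraries of a group came from separate animals. P-values therefore measure the spread between these libraries, part of which may be technical. Replicates are numbered in accession order, the numbers pair nothing, and every pair of values below is given as replicate 1 and then replicate 2.

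JQ1 is a small molecule that occupies the acetyl-lysine pocket of the BET bromodomain proteins, Brd2 and Brd3 among them. BET proteins read acetylated histones at promoters and enhancers and help to bring in P-TEFb, the kinase complex that releases paused RNA polymerase into elongation. In cultured tumour cells BET inhibition is known for lowering some enhancer-driven genes, among them Myc or Fosl1 in certain lineages, and for raising others such as Hexim1.

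The vehicle libraries held 12615865 and 15224108 counts and the JQ1 libraries 8977259 and 9789137, within a range of 2719816 to 15224108 over the series. Ribosomal RNA took 23.7% and 21.8% of the vehicle counts and 35.0% and 27.7% of the JQ1 counts. JQ1 replicate 1 came from a female and the other 3 libraries from males, judged by Xist and Y-linked genes. Lung epithelium was marked by Nkx2-1, the lineage transcription factor of lung epithelium, at 1043 to 2124 CPM (counts scaled to library size, with TMM factors), and by 20 alveolar type 2 genes, which summed to 7240 to 14100 CPM. Myh7, a myosin heavy chain of heart and slow muscle, was also abundant, at 4817 and 3458 CPM in vehicle and 2137 and 3387 CPM with JQ1. Other muscle genes were not all present. Of 21 striated muscle genes 8 passed the filter on low counts, and Myl1, Myl2 and Nppa had no count in any library. The 8 tested genes, Myh7 included, summed to 5380 and 3860 CPM in vehicle and 2410 and 3750 CPM with JQ1.

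No gene passed the test between JQ1 and vehicle. In edgeR (quasi-likelihood test, Benjamini-Hochberg adjustment) 0 of 14085 genes (0%) had an adjusted p under 0.05, and the smallest was 0.0916. At an unadjusted p under 0.05 there were 1427 genes (10.1%), of which 791 (5.62%) were higher and 636 (4.52%) lower with JQ1. DESeq2 called 80 genes (0.568%), 34 higher and 46 lower, and limma voom called 0. Leaving out JQ1 replicate 2 gave 17 called genes in edgeR, all higher, and leaving out any other library gave 0 or 1. The fold changes below are therefore measured differences, with their standard errors, that did not pass the main test.

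Agreement between the JQ1 libraries was partial. Both lay above both vehicle libraries at 3706 genes (26.3%), and both lay below at 3231 genes (22.9%). Over a gap of more than 1 on the log2 scale, 122 genes (0.866%) were above and 94 (0.667%) below. When each JQ1 library was set against a different vehicle library, the differences correlated across genes with a Pearson r of 0.255 when replicates of equal number were set together and 0.217 when they were crossed. The sign was shared by 62.9% and 62.0% of genes, respectively. Genes are not independent replicates, so these values describe the 4 libraries. For comparison, the difference within the JQ1 pair and the difference within the vehicle pair had an r of 0.044 and shared a sign at 51.1% of genes.

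The JQ1 libraries also stood further apart than the vehicle libraries. The standard deviation over genes was 0.786 (log2) for the difference between both JQ1 libraries, 0.52 for that between both vehicle libraries and 0.599 for the difference of the group means. A mean of 2 libraries varies less than a single library, so the last value is not like for like. Set singly against the vehicle mean, the JQ1 libraries had standard deviations of 0.734 and 0.698. Between the JQ1 libraries 2046 genes differed by over 1 log2, against 779 between the vehicle libraries and 1091 between the group means. From the vehicle mean, JQ1 replicate 1 alone differed so at 1791 genes and JQ1 replicate 2 at 1772. Genes found more than 2 log2 from the other 3 libraries, which themselves spanned under 1, numbered 45 high and 11 low in JQ1 replicate 1. They numbered 9 high and 21 low in JQ1 replicate 2, 2 high and 0 low in vehicle replicate 1, and 3 high and 2 low in vehicle replicate 2.

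The 12 genes with the smallest p in each direction, at a mean log2 CPM of 1 or more and with no overlap between groups, were ranked, and 22 of the 24 are given in full. Among those higher with JQ1, Eps8l3 (chromosome 3, 107877229 to 107892900, GRCm38), a relative of the actin regulator Eps8, was at 0.84 and 0.746 CPM in vehicle and 10.1 and 7.84 CPM with JQ1. Its log2 fold change was 3.48 with a standard error (SE) of 0.55, and both JQ1 libraries stood far above both vehicle libraries. Gpa33 (chromosome 1, 166130238 to 166166510), the A33 antigen of gut epithelium, was at 5.73 and 5.51 CPM in vehicle and 19.6 and 34.4 CPM with JQ1 (log2 2.27, SE 0.39). Gcnt3, which branches the sugar chains of mucins, was at 3.51 and 1.03 CPM against 20.3 and 18.2 CPM (log2 3.10, SE 0.59). Both genes were higher in each JQ1 library than in either vehicle library, and for Gcnt3 the vehicle libraries differed among themselves.

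Dsg2, a cadherin of desmosomes, was at 11.5 and 7.86 CPM in vehicle and 36.9 and 25.7 CPM with JQ1 (log2 1.69, SE 0.34). Misp, a protein of the actin cortex and the spindle, was at 1.53 and 1.20 CPM against 9.02 and 8.19 CPM (log2 2.65, SE 0.45). Myo15b, an unconventional myosin, was at 0.993 and 1.15 CPM against 8.18 and 8.72 CPM (log2 2.96, SE 0.58). In Misp and Myo15b the JQ1 libraries were nearly level with each other. Gsta4, a glutathione transferase that detoxifies products of lipid peroxidation, was at 7.56 and 6.94 CPM in vehicle and 50.1 and 21.7 CPM with JQ1 (log2 2.31, SE 0.41). Sgms2, the sphingomyelin synthase of the plasma membrane, was at 2.75 and 3.16 CPM against 45.5 and 13.2 CPM (log2 3.31, SE 0.59). For Gsta4 and Sgms2 JQ1 replicate 1 was the higher library by a wide margin.

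Tm4sf1, a membrane protein of endothelial and tumour cells, was at 2.37 and 2.98 CPM in vehicle and 11.6 and 20.7 CPM with JQ1 (log2 2.59, SE 0.46). Prox1, the homeobox factor of lymphatic endothelium and of several progenitor cells, was at 2.21 and 1.32 CPM against 9.23 and 18.2 CPM (log2 2.96, SE 0.57). In this pair JQ1 replicate 2 was the higher library. Ankrd50, an ankyrin repeat protein of endosomes, was at 9.39 and 9.29 CPM against 28.1 and 32.7 CPM (log2 1.70, SE 0.32). Slc35e3, a solute carrier, was at 4.05 and 4.02 CPM against 12.7 and 14.0 CPM (log2 1.73, SE 0.34). Their vehicle values were almost identical, so that the gap between groups was many times the gap within them.

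**Figure D1:**
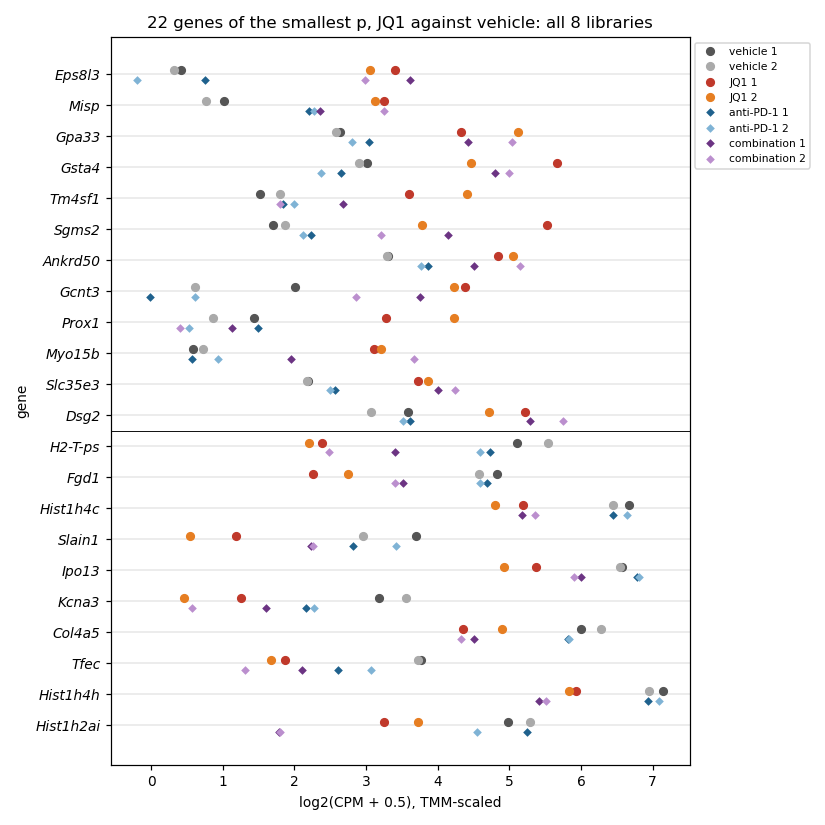
Each row is a gene and each symbol a library: circles for vehicle and JQ1, diamonds for anti-PD-1 and the combination, on a log2(CPM + 0.5) axis. The 12 genes above the line were higher with JQ1 alone and the 10 below it were lower, and in all 22 the vehicle and JQ1 circles do not overlap.

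Of the genes lower with JQ1, H2-T-ps had the smallest p of all. It is a pseudogene of the major histocompatibility complex (chromosome 17, 36109234 to 36111658) and was at 34.0 and 45.9 CPM in vehicle and 4.72 and 4.10 CPM with JQ1 (log2 -3.18, SE 0.39, adjusted p 0.0916 by edgeR). Nearby class I genes split the series in another way. H2-T22 was at 0.229 and 0.459 CPM in vehicle and 25.8 and 40.9 CPM with JQ1, but also at 0.21 and 36.3 CPM with anti-PD-1 and at 0 and 24.9 CPM in the combination. H2-T23, a non-classical class I gene, followed it, at 12.5 and 11.99 CPM in vehicle, 53.9 and 92.9 CPM with JQ1, 14.4 and 89.2 CPM with anti-PD-1, and 5.89 and 70.4 CPM in the combination. H2-T22 and H2-T23 were thus high in 1 library of each antibody group and low in the other, although treatment was the same. The complex differs in sequence and gene content between mouse strains, the animals are of mixed background, and the part of strain in these values was not tested.

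Histones make up 3 of the 12 lower genes and are treated with their family. Fgd1, an exchange factor for the small GTPase Cdc42 (chromosome X, 151046150 to 151089521), was at 27.8 and 23.4 CPM in vehicle and 4.30 and 6.19 CPM with JQ1 (log2 -2.28, SE 0.33). Col4a5, a basement membrane collagen chain (chromosome X, 141475385 to 141689234), was at 63.6 and 76.9 CPM against 19.9 and 29.2 CPM (log2 -1.52, SE 0.29). Both genes are X-linked, and JQ1 replicate 1 came from a female. They were ranked for lying below both vehicle libraries in each JQ1 library. Both kept their sign in a fit with a sex term, but the part of sex in their values was not itself tested.

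Ipo13, a nuclear transport receptor, was at 94.4 and 93.2 CPM in vehicle and 40.9 and 29.9 CPM with JQ1 (log2 -1.41, SE 0.26). Slain1, a microtubule plus-end protein, was at 12.4 and 7.29 CPM against 1.78 and 0.959 CPM (log2 -2.85, SE 0.50). Ipo13 was closely matched between the vehicle libraries. Kcna3, a voltage-gated potassium channel, was at 8.55 and 11.2 CPM against 1.89 and 0.872 CPM (log2 -2.85, SE 0.53). Tfec, a transcription factor of the MiT family, was at 13.1 and 12.7 CPM against 3.15 and 2.702 CPM (log2 -2.14, SE 0.42). Adjusted p over the 24 genes ran from 0.0916 to 0.353 by edgeR, and DESeq2 called all 24.

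The replication-dependent core histones, which are made in S phase from transcripts that end in a stem-loop in place of a poly(A) tail, were lower as a family. Of 52 tested genes for H2A, H2B, H3 and H4, both JQ1 libraries lay below both vehicle libraries at 45 (86.5%, against 22.9% of all tested genes) and above at 0. The fold change was negative at 50 of them, with a median of -1.1 (log2), against 0.065 over all tested genes, and the p was under 0.05 at 31, all lower. Summed over the 52 genes, the level was 2637 and 3003 CPM in vehicle and 1561 and 1035 CPM with JQ1. JQ1 replicate 2 was the lower library, with a median difference from the vehicle mean of -1.4, against -0.82 in JQ1 replicate 1.

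All 4 core histone classes were on the same side. H4 had a median of -1.22 over 12 genes with 11 below, H2B -1.18 over 15 with 14 below, H2A -1.0 over 14 with 10 below and H3 -1.01 over 11 with 10 below. Hist1h4c was at 101 and 87.1 CPM in vehicle and 36.1 and 27.5 CPM with JQ1 (log2 -1.57, SE 0.27). Hist1h4h was at 142 and 124 CPM against 60.7 and 56.4 CPM (log2 -1.18, SE 0.24). Hist1h2ai was at 31.2 and 38.5 CPM against 9.02 and 12.7 CPM (log2 -1.68, SE 0.35). These 3 are the histones among the 12 genes ranked lower. Hist1h2bm was at 87.3 and 112 CPM against 43.2 and 22.8 CPM (log2 -1.60, SE 0.36). Hist1h3e was at 52.1 and 38.5 CPM against 22.02 and 16.6 CPM (log2 -1.23, SE 0.31). Members of a class are near-identical copies, and the sources used here do not state how reads matching several of them were assigned, so the values of single members are uncertain.

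Below are the 250 bases before the start of Hist1h4c and of Hist1h2ai, shown because these genes had the smallest p of their classes; capitals mark CCAAT boxes (CCAAT on the printed strand or ATTGG, its complement). The sequences are from RefSeq on GRCm38.p6, at chr13:23698459-23698708 on the minus strand and chr13:21716162-21716411 on the plus strand.
Hist1h4c: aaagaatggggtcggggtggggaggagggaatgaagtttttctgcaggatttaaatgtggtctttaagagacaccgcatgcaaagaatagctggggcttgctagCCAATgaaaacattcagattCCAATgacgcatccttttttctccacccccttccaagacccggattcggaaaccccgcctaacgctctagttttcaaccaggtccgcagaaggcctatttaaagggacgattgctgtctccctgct
Hist1h2ai: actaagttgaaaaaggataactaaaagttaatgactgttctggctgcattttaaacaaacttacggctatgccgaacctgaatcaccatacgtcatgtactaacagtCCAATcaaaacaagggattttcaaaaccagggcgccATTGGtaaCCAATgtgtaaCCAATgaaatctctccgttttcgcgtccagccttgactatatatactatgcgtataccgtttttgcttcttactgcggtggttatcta
Promoters were found for 46 of the 52 core histone genes. CCAAT, searched on both strands, was present in 37 of them (80.4%), against 34.5% of 27025 promoters of the same length. It was in all 13 H2A and all 13 H2B promoters but in 3 of 11 H4 promoters. TATAAA, also searched on both strands, was present in 21 of the 46 (45.7%), against 13.0% of all promoters. H4 and H2B genes were both lower with JQ1, while CCAAT was less frequent before the H4 genes. A match in these windows is a description of the sequence and not a mapped binding site.

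Other genes of the cell cycle were less uniform. The linker histones H1 had a median of -0.48 over 5 genes and the replication-independent variants -0.42 over 10, among them H3f3a at 211 and 242 CPM in vehicle and 154 and 142 CPM with JQ1. Genes of DNA replication had a median of 0.29 over 31, with 7 above and 4 below, and the JQ1 libraries took opposite sides, at 0.48 and -0.23. For mitosis the median was -0.40 over 22 genes, with 8 below and 0 above. Over all tested genes 26.3% were above and 22.9% below. Plk1, the kinase that drives mitotic entry, was at 4.2 and 4.82 CPM in vehicle and 1.47 and 1.31 CPM with JQ1 (log2 -1.70, SE 0.51). Histone levels and the mitosis median (-0.18 and -0.59) were lower in both JQ1 libraries, while the replication median was higher in replicate 1 only. The part of cell division in the histone values was not tested.

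Transcripts of the mitochondrial genome, which encodes subunits of the respiratory chain, were higher in both JQ1 libraries. All 10 tested members lay above both vehicle libraries (26.3% of all tested genes did), with a median log2 fold change of 0.92 and medians of 0.92 and 0.96 in the JQ1 libraries. The 7 members at 10 CPM or more in both vehicle libraries had fold changes between 0.81 and 1.1, and p was under 0.05 at each. Cytochrome b of complex III, mt-Cytb, was at 307 and 273 CPM in vehicle and 586 and 528 CPM with JQ1 (log2 0.94, SE 0.24). The complex I subunit mt-Nd4 was at 125 and 111 CPM against 225 and 223 CPM (log2 0.92, SE 0.24). Another, mt-Nd1, was at 202 and 149 CPM against 343 and 408 CPM (log2 1.10, SE 0.29). The remaining tested members, mt-Co2 and mt-Co3 of complex IV and mt-Atp6 of the ATP synthase, named after their values were seen, summed to 1.91 and 1.38 CPM in vehicle and 3.46 and 4.18 CPM with JQ1. Mitochondrial genes other than ribosomal RNA took 0.17% and 0.15% of the vehicle counts and 0.29% and 0.35% of the JQ1 counts. The ribosomal RNA share was also higher with JQ1. The part of that share, and of the TruSeq RNA Access kit used for the libraries, in these values was not tested.

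**Figure D2:**
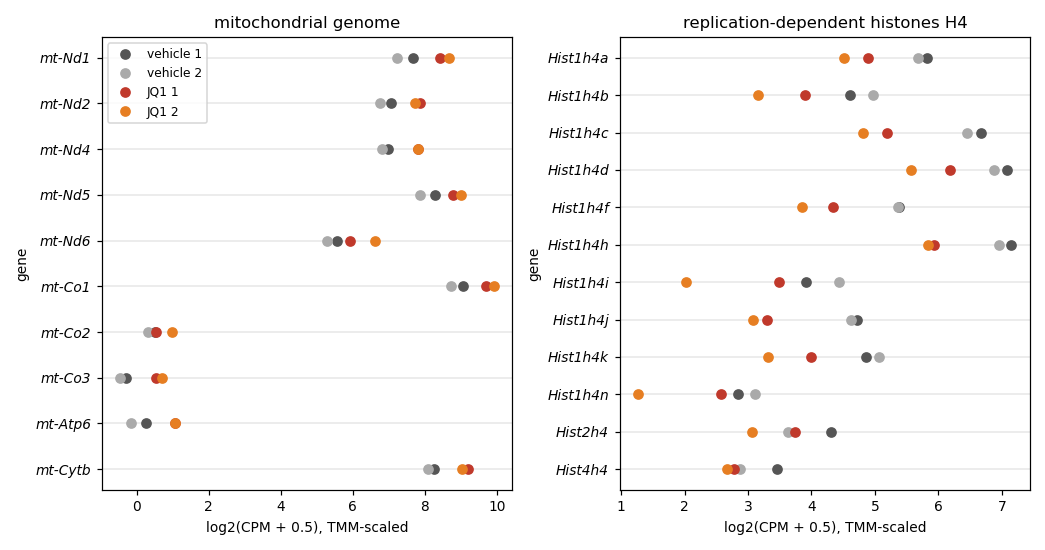
The left panel shows the 10 tested genes of the mitochondrial genome and the right panel the 12 tested H4 histones, with a circle for each vehicle and JQ1 library on a log2(CPM + 0.5) axis. JQ1 circles lie right of both vehicle circles at all 10 mitochondrial genes and left of them at 11 of the 12 histones.

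Nuclear genes of oxidative phosphorylation, which build the rest of the respiratory chain, had a median of 0.43 over 36. Of these 19 were above and 3 below, against 26.3% and 22.9% of all tested genes. Here the libraries differed, at 0.67 in JQ1 replicate 1 and 0.10 in JQ1 replicate 2. The summed level was 1476 and 1347 CPM in vehicle and 1533 and 1148 CPM with JQ1, so the groups overlapped. Ndufb5, a complex I subunit, was at 2.60 and 3.84 CPM in vehicle and 8.18 and 5.93 CPM with JQ1 (log2 1.12, SE 0.43).

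The direction of the difference varied with transcript length. Genes were split by annotated length into 4 equal groups. Among the shortest 28.3% lay above and 20.3% below, and among the longest 21.9% lay above and 27.7% below. Core histones are short, with a median annotated length of 526 bases, and 86.5% of the 52 tested lay below. Fits with a sex term or with ribosomal RNA removed called 0 genes and kept the sign of the 22 ranked genes described. The part of length, of the ribosomal RNA share and of sex in the gene differences was not itself tested.

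Differences also ran together along whole chromosomes, a split made after the gene values had been seen. On chromosome 3 the median log2 fold change was 0.34 over 770 genes, with 39.9% above and 10.6% below, and the medians of the JQ1 libraries were 0.20 and 0.35. On chromosome 4 it was -0.26 over 818 genes, with 14.2% above and 42.3% below, and JQ1 medians of -0.33 and -0.21. The X chromosome had a median of -0.26 over 413 genes, with 16.5% above and 39.2% below, and JQ1 medians of -0.28 in the female library and -0.19 in the male one. On these 3 chromosomes the JQ1 libraries were on the same side, and the vehicle libraries lay within 0.061 of their mean. Of the 12 genes ranked higher, 4 (Eps8l3, Tm4sf1, Sgms2 and Ankrd50) are on chromosome 3, and 3 of the 12 ranked lower, Fgd1 and Col4a5 among them, are on the X. Kcna3, ranked lower, also lies on chromosome 3.

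On chromosome 2 the JQ1 medians were also on 1 side, at 0.20 and 0.14, while on chromosomes 7, 13 and 15, singled out after their values were seen, they took opposite sides. Chromosome 7 had medians of 0.26 and -0.054, chromosome 13 of -0.18 and 0.15, and chromosome 15 of 0.24 and -0.15. The core histone genes on chromosome 13 were below both vehicle libraries at 40 of 43, in both JQ1 libraries alike. On chromosome 3, whose median was higher, 4 of 8 core histones were below. After each chromosome was centred in each library, the r for different vehicle libraries was 0.251 and 0.232, and 25.8% of genes lay above and 26.1% below. The 22 ranked genes described remained without overlap. DNA copy number was not measured, and its part in these values was not tested.

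**Figure D3:**
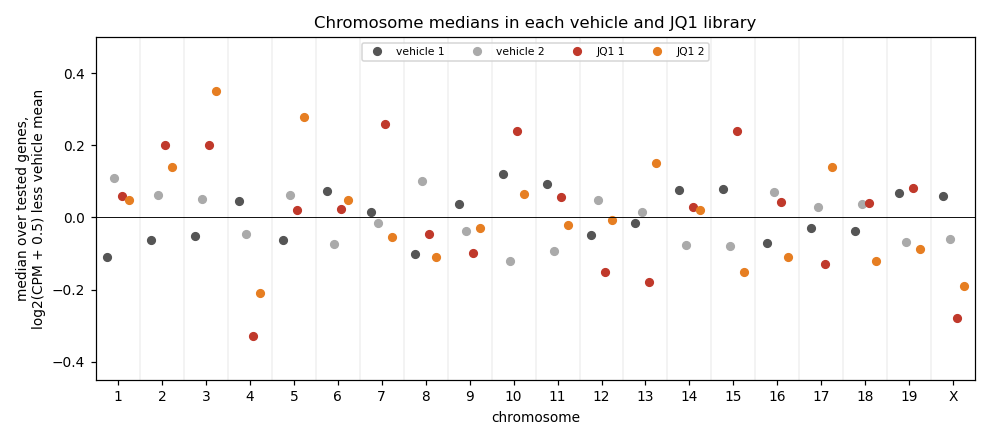
Each point is the median over the tested genes of a chromosome in 1 library, on the log2(CPM + 0.5) scale relative to the vehicle average, with gray for vehicle and red or orange for JQ1. Both JQ1 points lie above the vehicle points on chromosomes 2 and 3 and below them on chromosomes 4 and X.

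The gene lists that follow are described by their counts above and below both vehicle libraries, which stood at 26.3% and 22.9% over all tested genes, and by their median, which was 0.065 over all tested genes. Brd2, a direct target of JQ1, was at 327 and 295 CPM in vehicle and 165 and 225 CPM with JQ1 (log2 -0.67, SE 0.25), below in both libraries. Brd3 was at 25.4 and 23.8 CPM against 25.1 and 36.4 CPM, and Cdk9, the kinase of P-TEFb, at 9.85 and 13.3 CPM against 14.4 and 12.2 CPM. Over the 15 tested genes of BET proteins and P-TEFb 4 were above and 3 below, shares close to those of all tested genes. Their median was -0.04, with JQ1 medians of -0.30 and 0.21, and 0.204 without JQ1 replicate 1. Hexim1, which holds P-TEFb inactive, was at 46.0 and 29.4 CPM in vehicle and 29.8 and 19.1 CPM with JQ1 (log2 -0.63, SE 0.45), where the groups overlapped.

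Genes that BET inhibitors are known to lower in tumour cells were not lower as a group, with a median of 0.08 over 13, 5 above and 4 below. Without JQ1 replicate 1 that median was -0.23. Myc was at 19.8 and 16.7 CPM in vehicle and 25.7 and 23.7 CPM with JQ1 (log2 0.44), and its relative Mycn at 45.5 and 62.0 CPM against 18.98 and 40.3 CPM (log2 -0.86, SE 0.59). Fosl1, an AP-1 subunit, was at 0.687 and 0.631 CPM against 2.52 and 3.14 CPM (log2 2.09, SE 0.63). Cdk6, a kinase of the G1 phase, was at 12.8 and 12.3 CPM against 27.2 and 30.4 CPM (log2 1.20, SE 0.34). Its cyclin partner Ccnd2 was at 11.4 and 10.3 CPM against 55.1 and 20.3 CPM (log2 1.79, SE 0.65). Myc, Fosl1, Cdk6 and Ccnd2 thus lay above the vehicle libraries in both JQ1 libraries, and Mycn below. Max, the partner of Myc, was at 299.96 and 268 CPM in vehicle and 173 and 167 CPM with JQ1 (log2 -0.74, SE 0.23). Genes that BET inhibitors are known to raise had a median of 0.67 over 7, with 4 above and 0 below.

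Jun and Jund, which are also AP-1 subunits, were below vehicle in both JQ1 libraries. Jun was at 34.1 and 34.9 CPM in vehicle and 17.2 and 18.0 CPM with JQ1 (log2 -0.97, SE 0.31), and both replicates of each group were nearly level. Jund was at 363 and 365 CPM against 149 and 209 CPM (log2 -1.03, SE 0.34), and the immediate early gene Egr1 at 45.4 and 49.2 CPM against 27.6 and 21.0 CPM (log2 -0.96, SE 0.34). The list of 20 AP-1 and immediate early genes was mixed, with 9 positive and 11 negative, 4 above and 6 below. Its median was -0.27, and 0.01 without vehicle replicate 2. Trp53 was at 1.99 and 2.75 CPM in vehicle and 3.57 and 3.57 CPM with JQ1. Spry1, a feedback inhibitor of the ERK pathway, was at 11.5 and 13.4 CPM against 22.97 and 28.6 CPM (log2 1.05, SE 0.31). The 20 tested genes of ERK feedback and output were mixed, with 9 positive and 11 negative, 3 above and 5 below. Their median was -0.115, and 0.0774 without vehicle replicate 1.

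Genes of gastric and intestinal epithelium, a list drawn up with results for Eps8l3 and Gpa33 already known, had a median of 2.27 over 17, with 11 above and 1 below. Without those 2 genes the median was 2.0 over 15, with 9 above and 1 below. The libraries were unequal, with medians of 2.2 in JQ1 replicate 1 and 0.53 in JQ1 replicate 2. Summed over the 17 genes, the level was 825 and 796 CPM in vehicle and 1480 and 732 CPM with JQ1. By that sum JQ1 replicate 2 lay below both vehicle libraries. Gkn2, a gastrokine of the stomach lining, was at 75.8 and 42.2 CPM in vehicle and 271 and 147 CPM with JQ1 (log2 1.82, SE 0.48). Krt20, a keratin of intestinal epithelium, was at 1.76 and 0.861 CPM against 65.1 and 6.45 CPM, and Lgals4, a gut lectin, at 0.916 and 1.32 CPM against 65.5 and 2.53 CPM. In these last genes most of the difference came from JQ1 replicate 1.

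Airway secretory genes showed the same imbalance, with a median of 1.32 over 12, medians of 1.2 and 0.15 in the JQ1 libraries, and 5 genes above and 0 below. Scgb1a1, the main secreted protein of club cells, was at 5.35 and 3.5 CPM in vehicle and 77.9 and 22.5 CPM with JQ1 (log2 3.51, SE 0.80). The airway mucin Muc5b was at 23.9 and 4.93 CPM against 349 and 145 CPM (log2 4.11, SE 1.30). Both were several-fold above vehicle in each JQ1 library. Ciliated-cell genes had medians of 2.2 and 0.053 in the JQ1 libraries over 8 genes, with a median of 2.0 that was -0.03 without JQ1 replicate 1, and their factor Foxj1 was at 0.305 and 0.0574 CPM in vehicle and 6.08 and 0.436 CPM with JQ1. In bulk tissue, more or fewer cells of a type cannot be told apart from more or less RNA per cell, and the part of cell mixture in these values was not tested.

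Alveolar type 2 genes, the surfactant-making programme from which these tumours are thought to arise, had a median of -0.53 over 20, with 9 below and 2 above. The vehicle libraries themselves lay 0.26 above and below their mean, and the summed level was 14100 and 9720 CPM in vehicle and 9620 and 7240 CPM with JQ1. Nkx2-1 was at 2124 and 1733 CPM in vehicle and 1043 and 1203 CPM with JQ1 (log2 -0.78, SE 0.33). Hc, the fifth component of complement, was at 46.7 and 72.1 CPM against 17.8 and 8.98 CPM (log2 -2.15, SE 0.52), and DESeq2 called it with an adjusted p of 0.003. Napsa, the protease that processes surfactant protein B, was on the other side at 88.4 and 46.8 CPM against 154 and 119 CPM (log2 1.01, SE 0.34). Among lung lineage factors Foxp2 was at 274 and 239 CPM in vehicle and 71.5 and 19.96 CPM with JQ1 (log2 -2.49, SE 0.79). Of 18 tested lung lineage factors 8 were positive and 10 negative, with 2 above and 7 below. Their median was -0.28, and 0.13 without vehicle replicate 1. Id2, a dominant inhibitor of helix-loop-helix factors, was at 484 and 393 CPM against 238 and 265 CPM (log2 -0.80, SE 0.26). Cdh1, the epithelial cadherin, was at 118 and 116 CPM against 224 and 155 CPM (log2 0.69, SE 0.27), and the mesenchymal filament gene Vim at 301 and 365 CPM against 229 and 164 CPM (log2 -0.76, SE 0.31). Both come from a list of epithelial-mesenchymal transition genes that was mixed, with 12 of 18 positive, 5 above and 3 below, and JQ1 medians of 0.50 and -0.32. The median of that list was 0.39, and -0.45 without JQ1 replicate 1.

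Glutathione enzymes and other targets of the oxidative stress factor NRF2 had a median of 0.41 over 22, with 10 above and 0 below, against 26.3% and 22.9% of all tested genes. Gsta3 was at 3.97 and 7.29 CPM in vehicle and 15.3 and 11.9 CPM with JQ1 (log2 1.26, SE 0.42), and Txnrd1, the cytosolic thioredoxin reductase, at 33.6 and 27.2 CPM against 44.4 and 59.1 CPM (log2 0.77, SE 0.31). Targets of p53 had a median of 0.51 over 17, with 7 above and 1 below. Mdm2, the ubiquitin ligase of p53, was at 11.1 and 8.84 CPM in vehicle and 16.7 and 18.4 CPM with JQ1 (log2 0.82, SE 0.32). In both lists the JQ1 libraries had medians on the same side, at 0.46 and 0.29 for the first and 0.49 and 0.37 for the second.

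Among vessel and immune genes, those of endothelium had 15 of 22 members above and 0 below (26.3% and 22.9% over all tested genes), with a median of 0.70 and library medians of 0.74 and 0.45. The vehicle libraries themselves lay 0.33 below and above their mean. Pecam1, an adhesion molecule of endothelial junctions, was at 5.12 and 10.2 CPM in vehicle and 20.2 and 17.8 CPM with JQ1 (log2 1.30, SE 0.42), and Flt1, a receptor for VEGF that the list of alveolar macrophage genes also holds, at 22.8 and 20.6 CPM against 37.4 and 51.3 CPM (log2 1.03, SE 0.28). The basement membrane collagen Col4a1 was at 167 and 204 CPM against 309.5 and 341 CPM (log2 0.81, SE 0.25). Vegfa, the ligand of Flt1, was on the other side, at 479 and 679 CPM in vehicle and 311 and 357 CPM with JQ1 (log2 -0.79, SE 0.29).

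Genes of MHC class II presentation had a median of -0.63 over 9, with 5 below and 2 above, and library medians of -0.2 and -1.7. H2-Aa, a class II chain encoded in the same strain-variable complex as H2-T-ps, was at 209 and 214 CPM in vehicle and 45.2 and 16.7 CPM with JQ1 (log2 -2.77, SE 0.67), and DESeq2 called it with an adjusted p of 0.000151. Cd74, the invariant chain, was at 709 and 464 CPM against 285 and 63.0 CPM (log2 -1.75, SE 0.84). Both were lower in each JQ1 library, most in JQ1 replicate 2. Interferon-inducible GTPases had a median of 1.0 over 10, with 6 above and 0 below, and genes of the type I interferon response 0.75 over 19, with 6 above and 1 below. For these the libraries were again unequal, at 1.2 and 0.43 and at 0.85 and 0.067. Irf7, a factor of the interferon response, was at 0.305 and 0.459 CPM in vehicle and 3.67 and 1.22 CPM with JQ1.

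Cd274, which encodes the PD-1 ligand PD-L1, was at 1.53 and 1.61 CPM in vehicle and 1.57 and 1.66 CPM with JQ1 (log2 0.04). Its values overlapped between groups, and they rest on 20 and 28 reads in vehicle and 15 and 19 with JQ1. Nectin2, another ligand of lymphocyte receptors, was at 20.1 and 18.9 CPM against 49.9 and 33.6 CPM (log2 1.10, SE 0.31). Markers of lymphocytes were scarce. Of 22 T cell genes 5 passed the count filter and of 14 NK cell genes 1. The 5 tested T cell genes summed to 15.4 and 15.3 CPM in vehicle and 22.5 and 8.63 CPM with JQ1. Of 58 lists with 5 or more tested genes, both JQ1 medians were positive in 23, both negative in 18, and on opposite sides in 17.

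**Figure D4:**
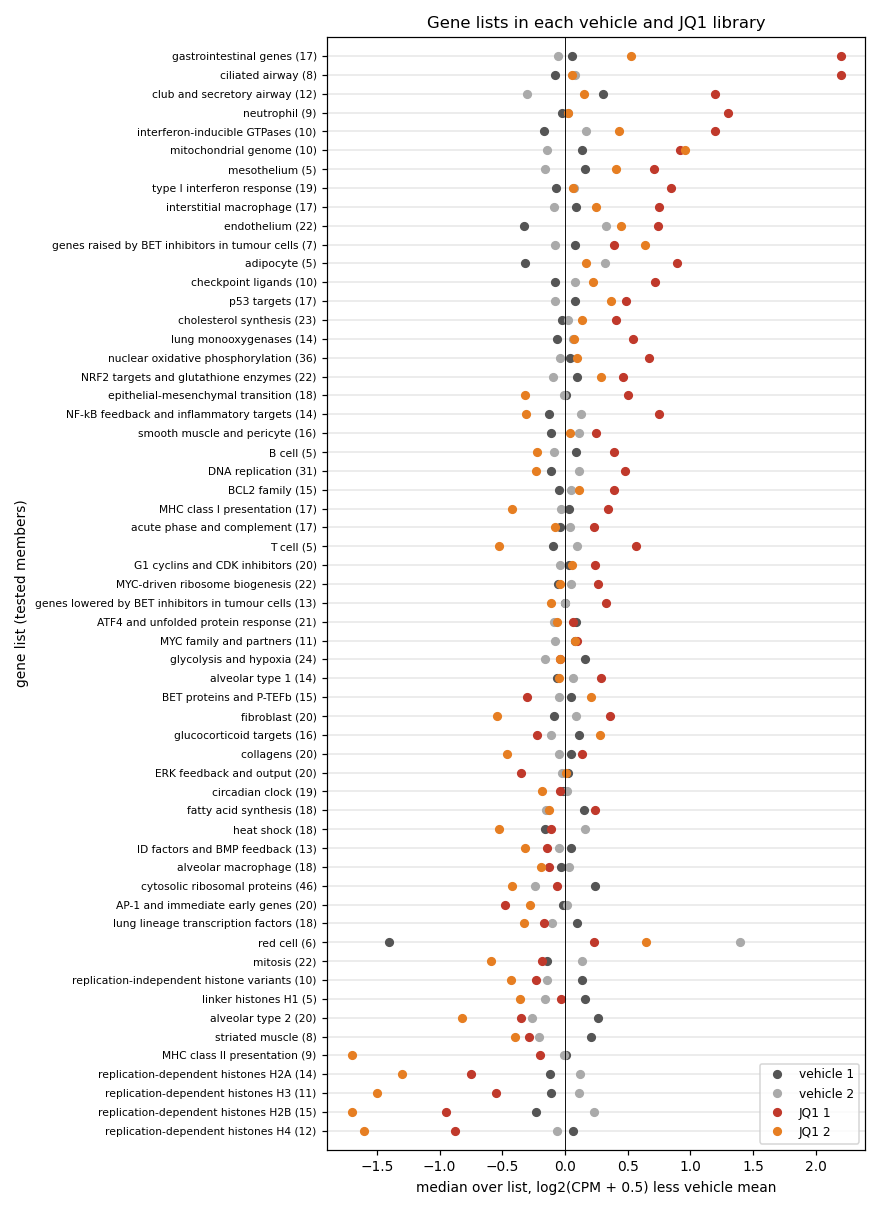
Each row is a gene list with its number of tested members, and each circle is the median of the list in 1 library, as log2(CPM + 0.5) less the vehicle mean. The 4 core histone lists lie at the bottom with both JQ1 circles left of vehicle, and gastrointestinal and ciliated genes lie at the top with JQ1 replicate 1 far to the right of JQ1 replicate 2.

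Several genes were present in JQ1 replicate 1 and nearly absent from JQ1 replicate 2. Duox2, which makes hydrogen peroxide at epithelial surfaces, was at 0 and 0.402 CPM in vehicle and 42.4 and 0.0872 CPM with JQ1. Pax9, a paired-box factor of foregut epithelium, was at 0.993 and 0.746 CPM against 38.5 and 0.523 CPM, and Cyp2f2, a club cell monooxygenase, at 5.35 and 3.21 CPM against 26.4 and 0.61 CPM. Other genes were below vehicle in JQ1 replicate 1 and above it in JQ1 replicate 2, among them Cubn, an endocytic receptor, at 16.3 and 25.4 CPM in vehicle and 4.51 and 76.7 CPM with JQ1, and Tfap2b, a transcription factor, at 13.0 and 23.8 CPM against 8.29 and 88.8 CPM. Such genes count as a difference of the groups by their mean, but only 1 JQ1 library carries it.

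JQ1 was also given on top of the antibody, in libraries that share none with the comparison above. Between the combination and anti-PD-1 alone, 596 genes (4.23%) passed in edgeR at an adjusted p under 0.05, 303 (2.15%) higher and 293 (2.08%) lower. That count depends on the libraries: it was 3 without anti-PD-1 replicate 1, 18 without anti-PD-1 replicate 2, 20 without combination replicate 2 and 967 without combination replicate 1. It was 89 and 70 without vehicle replicates 1 and 2, which enter through the shared estimate of spread. The fold changes of both comparisons had a Pearson r of 0.513 across genes, and 73.1% of genes had the same sign. Ribosomal RNA took 23.5% and 24.2% of the anti-PD-1 counts and 46.0% and 52.5% of the combination counts, so it was higher with JQ1 here too, and its part in the shared differences was not tested.

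Genes without overlap between JQ1 and vehicle mostly had the same direction with the antibody. Of the 3706 genes above both vehicle libraries 82.6% were higher in the combination than with anti-PD-1 alone (51.9% of all tested genes), and 206 of them (5.56%) passed that test as higher and 3 as lower. Of the 3231 genes below, 17.7% were higher, while 232 (7.18%) passed as lower and 4 as higher. Among the 7148 genes whose groups overlapped, 51.4% were higher.

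Of the 12 genes ranked higher, 11 were higher with the antibody too (51.9% of all tested genes were). In the test there 7 passed (2.15% of all tested genes did). The ranking and this test share an estimate of spread from all 8 libraries, so the passes are not independent of the ranking. Eps8l3 rose from 1.19 and 0.376 CPM to 11.8 and 7.42 CPM (log2 3.53, adjusted p 0.0246 by edgeR). Dsg2 rose from 11.7 and 10.9 CPM to 38.7 and 53.4 CPM (log2 2.03, adjusted p 0.0259 by edgeR). Prox1 was the exception, at 2.31 and 0.939 CPM with anti-PD-1 and 1.68 and 0.824 CPM in the combination. Tm4sf1, at 3.07 and 3.47 CPM against 5.89 and 2.97 CPM, overlapped between groups. All 12 genes ranked lower were lower with the antibody, and 6 passed the test (2.08% of all tested genes did). Hist1h2ai fell from 37.4 and 22.8 CPM to 2.95 and 2.97 CPM (log2 -3.34, adjusted p 0.0167 in edgeR).

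Histones and mitochondrial transcripts repeated their direction. Of the 52 core histones 34 passed as lower with the antibody (2.08% of all tested genes did), and their summed level was 2350 and 2405 CPM with anti-PD-1 and 564 and 768 CPM in the combination. Of the 10 mitochondrial genes 4 passed as higher, and of the 22 glutathione and NRF2 genes 8 did, against 2.15% of all tested genes. Nkx2-1 also fell (log2 -1.37, adjusted p 0.0496 in edgeR), as did Egr1 (log2 -1.49, adjusted p 0.047 in edgeR), while Fosl1 rose (log2 3.88, adjusted p 0.0347 in edgeR). Other lists had medians on the other side with the antibody. Alveolar type 2 genes were at 0.16, with 11 of 20 positive, DNA replication genes at -1.0 and ciliated-cell genes at -0.27, against -0.53, 0.29 and 2.0 for JQ1 alone, and the change of side was not tested. Gastrointestinal genes kept a positive median, 1.6, but 7 of 17 were negative. Without Eps8l3 and Gpa33 their median was 0.55, and 0 of 15 passed. Of the chromosome medians, those of chromosomes 3 and 4 were near 0 with the antibody (0.047 and 0.032), and that of the X was -0.21. Relative to the vehicle mean, however, chromosome 3 was at 0.21 and 0.096 with anti-PD-1 and at 0.19 and 0.088 in the combination. On chromosome 3 both antibody groups thus lay above both vehicle libraries, as JQ1 alone did. The combination libraries took opposite sides on chromosome 4, at -0.23 and 0.083. A test of whether the JQ1 effect differed with the antibody called 0 of 14085 genes (0%), and its smallest adjusted p among the 24 ranked genes was 0.745 by edgeR, which does not show that the effects were equal.

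**Figure D5:**
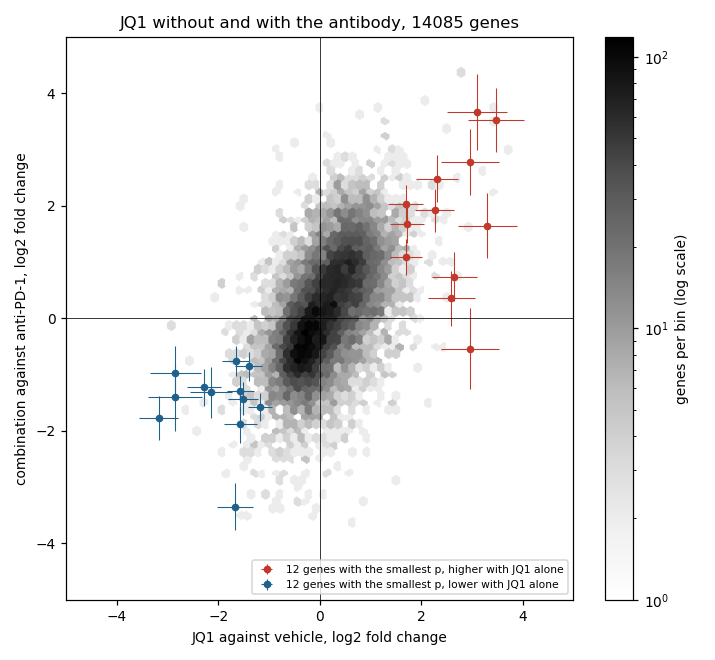
The gray bins count the 14085 genes by their log2 fold change for JQ1 against vehicle and for the combination against anti-PD-1, and 115 genes lie outside the axes. The coloured points are the 24 ranked genes with standard errors, of which 23 keep their side of zero and 1, Prox1, crosses it.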

How the data were processed

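Libraries were prepared from DNase-treated RNA of frozen tissue with the TruSeq RNA Access kit, per the labels' protocols. The values used are the deposited raw counts, whole numbers of reads for each gene symbol. Per the submitters' processing notes the tools were bcl2fastq, STAR, featureCounts and DESeq2 on mm10 (GRCm38). For versions, annotation and strand, the sources used here give nothing. The deposited normalized table was not used, since its columns are rescaled copies of the raw columns.

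Groups came from the treatment labels. Genes passing filterByExpr were tested in edgeR 4.0.16 (R 4.3.3) by its quasi-likelihood method. TMM scaled the libraries, and all 8 entered a joint fit, which leaves 4 residual degrees of freedom (biological coefficient of variation 0.332), and p-values were adjusted by Benjamini-Hochberg over all 14085 genes at a threshold of 0.05. DESeq2 1.42.0 and limma 3.58.1 (voom) were alternatives, with another scaling, no filter, only 4 libraries, ribosomal RNA removed, a sex term and each library left out. The fit was tested on simulated data. Values per library are CPM with TMM factors, and library differences use log2(CPM + 0.5). Library pairs were checked for copies and none was found: the chi-square per degree of freedom over genes was at least 19.5 for every pair. Symbols were matched to GENCODE vM21 for position and length (13813 of 14085), and promoters come from RefSeq. Ribosomal RNA is the sum of 361 features.

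Genes named are the 12 with the smallest p in each direction without overlap (mean log2 CPM of 1 or more, without predicted, Xist, Y-linked or receptor-segment genes), up to 4 members of each gene list by p, a fixed set that includes BET and Myc genes and Trp53, and genes that most separate the JQ1 libraries (mean log2 CPM of 2 or more, vehicle libraries within 1 log2). The comparison, the 60 lists and the rule were chosen with earlier results of these data known. Some genes picked this way are not reported here.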

Additional observations from a re-analysis of the deposited data

How the results depend on the processing

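JQ1 against vehicle gave 250 called genes with no filter on low counts, 80 with DESeq2 and 1 when only the 4 libraries compared were fitted. With the size factors of DESeq2 in edgeR, limma voom, ribosomal RNA removed or a sex term it gave 0. Leaving out each library in turn gave 0 to 17. The combination against anti-PD-1 gave 1920 with no filter, 1556 with DESeq2, 57 with only its 4 libraries and 212 with a sex term, and 3 to 967 with each library left out. Genes with both JQ1 libraries above vehicle numbered 3493 to 3797, and below 3288 to 3603, under other scaling, ribosomal RNA removed or chromosomes centred. With no filter they numbered 4902 and 4397, but of 26426 genes against 14085 in the main run. These are smaller shares than the 26.3% and 22.9% of the main run. The share of genes with the same sign with the antibody was 68.2% to 73.1% with a library left out. Leave-outs of libraries outside a comparison, and the alternatives for agreement, were chosen after seeing the data.

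The 22 ranked genes described kept their sign under every alternative. They were chosen for no overlap between the groups, so leaving out a library could hardly turn their sign. Of 867 values of 79 named genes 856 kept theirs. Cd274 (0.04) was at -0.0405 with a sex term and from -0.00512 to 0.0717 with a library left out, and Cdk9 from -0.0062 to 0.422. Over the libraries left out, Duox2 ran from -1.21 to 10.7, Pax9 from -0.725 to 5.45, Cyp2f2 from -2.79 to 2.62, Cubn from -2.21 to 1.87 and Tfap2b from -1.16 to 2.26. The lowest value came without JQ1 replicate 1 for the first 3 of these and without JQ1 replicate 2 for the others. In limma voom Cyp2f2 was at -0.112 and Cubn at -0.0693. Of 58 gene lists, 28 had a median that changed sign under some alternative. Among these were DNA replication, at -0.31 without JQ1 replicate 1, and lung lineage factors, at 0.13 without vehicle replicate 1. The causes were not tested. No paired analysis was possible because the labels carry no replicate numbers. With 2 libraries a group, depth and spread limit what can be called, and genes under about 1 CPM rest on few reads.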

Other observations

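Gene groups outside the main account gave these values. Cytosolic ribosomal protein genes had a median log2 fold change of -0.27 over 46, with 16 below and 5 above both vehicle libraries (22.9% and 26.3% over all tested genes), but the vehicle libraries themselves lay 0.24 above and below their mean. Heat shock genes had a median of -0.19 over 18, with 7 below and 0 above. Cholesterol synthesis genes had a median of 0.49 over 23, with 8 above and 3 below, and with the antibody 4 of them passed as higher. Genes of the BCL2 family had a median of 0.25 over 15, with 6 above and 0 below. Macrophage genes of the interstitial kind had a median of 0.70 over 17, with 8 above and 1 below, and neutrophil genes had library medians of 1.3 and 0.026 over 9. The 6 tested red cell genes summed to 4.51 and 86.6 CPM in vehicle and 26.7 and 40.9 CPM with JQ1. The vehicle libraries thus stood further apart than the JQ1 libraries.

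Actb, often used as a reference gene, was at 2.48% and 2.67% of all counts in vehicle and 1.30% and 1.64% with JQ1. Its scaled level was also lower in both JQ1 libraries (log2 -0.85).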
